A study of Mus with 7 samples.

Results

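The late response to lipopolysaccharide (LPS) was followed in macrophages that had been loaded with docosahexaenoic acid (DHA), an omega-3 fatty acid. Droplets label the RNA of single cells, with a unique molecular identifier (UMI) on each captured molecule. The cells of DHA.LPS.0 (0 h) and DHA.LPS.4 (4 h of LPS) were those barcodes with over 20000 UMIs, at least 2000 genes and under 20% of UMIs in mitochondrially encoded (mt-) genes. These were 698 and 692 cells, 1390 of the 11640 cells that passed the same limits in all 7 libraries. FLMs are self-renewing macrophages grown from the fetal livers of wild type C57BL/6J mice in 30 ng/mL GM-CSF. All cells of both groups spent 24 h in medium with 0.25% FBS, 25 µM DHA and 8.3 µM BSA, the protein that carries the fatty acid. DHA.LPS.0 was collected at that point, with no LPS. For DHA.LPS.4 the DHA medium was taken off and 20 ng/mL LPS in fresh low-serum medium was added for 4 h, so the added LPS, the change of medium and the later hour cannot be told apart. GM-CSF was present throughout. The matching vehicle groups, Veh.LPS.0 and Veh.LPS.4, received BSA alone and had 2481 and 993 cells. DHA.LPS.1, with 795 cells, was collected after 1 h of LPS.

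LPS is a cell wall component of Gram-negative bacteria and is bound by TLR4 together with MD-2 (Ly96) and CD14. From the cell surface TLR4 signals through MyD88 to NF-κB and MAP kinases, which drive cytokine, chemokine and feedback genes. From endosomes it signals through TRIF to IRF3, which drives Ifnb1, and secreted interferon then acts through its receptor, STAT2 and IRF7 on interferon-stimulated genes. NF-κB proteins are held in the cytoplasm by inhibitors such as IκBα (Nfkbia), which are themselves NF-κB targets.

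Each condition was 1 library. No difference below therefore has a replicate check, and none was tested. Intervals are exact binomial 95% intervals on summed UMIs and cover counting error only. DHA.LPS.0 held 35027812 UMIs and DHA.LPS.4 held 22045775, with medians of 46928 and 29631 UMIs per cell. Most barcodes of both libraries were lost to the limits: 18.5% of 3773 barcodes were kept at 0 h and 12.1% of 5722 at 4 h, and 76.4% and 80.0% of barcodes had a mitochondrial share of 20% or more. The vehicle libraries kept 55.6% and 40.6%. No barcode was shared between the DHA libraries and DHA.LPS.4 shared 1 barcode with each of 3 others. All 9 macrophage markers had UMIs in both libraries, from Lyz2 in 100% of cells to Csf1r, the receptor for M-CSF, in 87.5% of cells at 0 h and 53.2% at 4 h. The 9 neutrophil markers summed to 0.685 and 7.89 CPM (UMIs scaled to a common library total), of which S100a8 made up 6.99 CPM at 4 h, while Ly6g, Ngp, Ltf, Elane, Mpo and S100a9 were at 0 in both. Mast cell and basophil markers had no UMI, and the erythroid, stromal, endothelial, dendritic cell and lymphoid lists each summed to at most 1.34 CPM. Of the hepatocyte list, Afp had 5.45 and 7.30 CPM and Alb had no UMI. No other cell type was there in which free RNA could be measured, so shares of cells below count cells with a UMI and not cells that express a gene. The part of S100a8-bearing cells and of the mitochondrial limit in the results was not tested.

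For each gene, the UMIs of all cells of a library were added up and divided by that library's sum to give CPM, and ratios are 4 h over 0 h. In such sums, fewer cells with a transcript and less of it per cell cannot be told apart. A gene was measured where 50% or more of the cells in 1 of the libraries had a UMI. Of 6318 such genes, 318 were more than 2-fold higher at 4 h (5.03%) and 844 more than 2-fold lower (13.4%). The 0 h library was deeper per cell, so a gene could reach the 50% limit there more easily. With each cell thinned to 20000 UMIs, 256 of the 318 and 304 of the 844 were still called. The largest ratios were on the higher side, with 30 genes over 8-fold higher and 9 over 8-fold lower. The median log2 ratio was -0.24, with an interquartile range of 0.83. TMM factors, which set a trimmed mean of the log ratios to 0, move every log2 ratio up by 0.30. On the TMM scale the median was 0.06, and 498 genes were higher (7.88%) and 421 lower (6.66%), so higher genes made up 54.2% of the calls, against 27.4% with the library total. Median-of-ratios factors gave 541 and 393 genes, and SCTransform-corrected counts with a pseudocount of 1 gave 157 and 69. After 1 h of LPS, against the same 0 h library, 159 of 6315 genes were higher (2.52%) and 37 lower (0.586%). List medians below are on the total scale and are to be read against -0.24. Over all measured genes, 33.6% had a log2 ratio above 0, the share against which counts of higher and lower measured genes are to be read. Members of gene lists were counted where they had 10 or more UMIs over both libraries, a lower limit than for the measured genes. Over all 11987 genes at that lower limit the median log2 ratio was -0.35. Of these, 760 were over 2-fold higher and 2811 over 2-fold lower. List medians are therefore to be read against -0.35 as well, and the 33.6% holds for the measured genes only. For the main lists the count by the measured-gene limit, to which the 5.03% and 13.4% refer, is given as well. All counts of list members are by size alone.

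**Figure D1:**
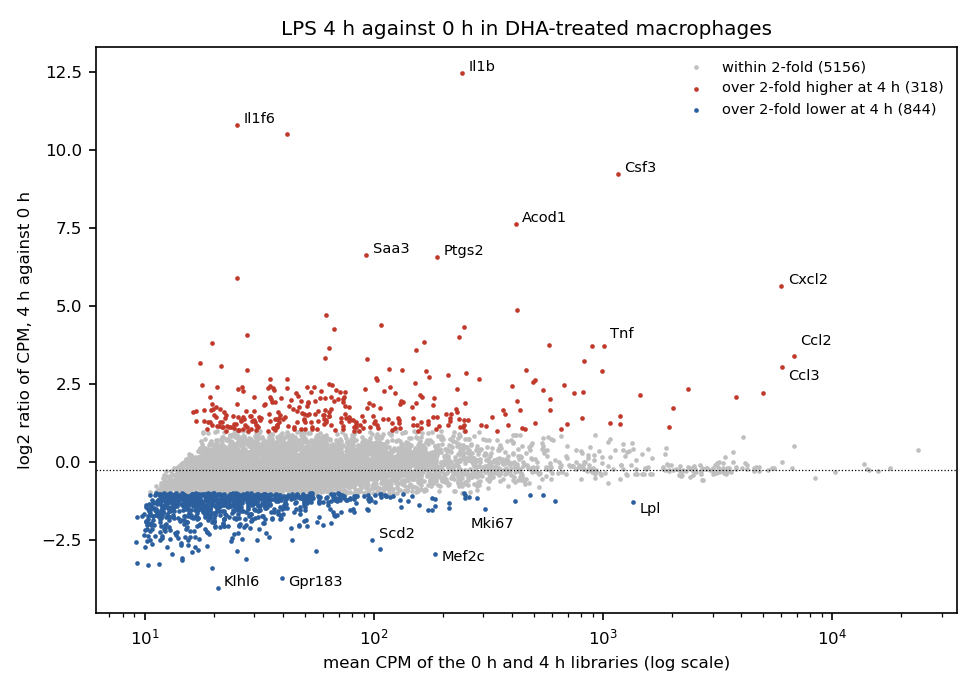
Each point is 1 of the 6318 genes, by its mean CPM in DHA.LPS.0 and DHA.LPS.4 (log scale) and its log2 ratio of CPM at 4 h over 0 h. Red and blue points are the 318 and 844 genes past 2-fold, the dotted line is the median of -0.24, and the ratio of Il1b is a bound because it had no UMI at 0 h.

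The IL-1 genes were the most strongly raised. Il1b (ENSMUSG00000027398, mm10 chromosome 2, 129364569 to 129371164), the precursor of the inflammasome-released cytokine IL-1β, had 0 CPM before LPS, 3.08 CPM after 1 h and 485 CPM after 4 h. Against a floor of 3 UMIs for the count of 0, this was 12.47 higher on the log2 scale, and the lower limit of the exact interval was 12.17. In cells thinned to 20000 UMIs each, an Il1b UMI was found in 0 of 698 cells at 0 h, which at a floor of 3 cells allows a share of cells with a UMI of up to 0.43%, and in 67.8% of cells at 4 h. Il1a, the second IL-1 receptor agonist, had 0, 5.41 and 139 CPM. Its exact lower limit was 10.37 on the log2 scale, and against that floor it was 10.67 higher. A UMI of Il1a was found in 43.2% of thinned cells at 4 h. Il1f6, which encodes IL-36α, had 1 UMI at 0 h and 50.5 CPM at 4 h, in 43.1% of thinned cells, a ratio of 1770 whose interval of 317 to 69973 shows how little that 1 UMI fixes. All 3 genes were at or near 0 before LPS and in 43.1% to 67.8% of thinned cells after it, and their increase fell almost wholly after the 1 h point.

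Growth factor genes stood highest at 4 h as well, but Csf3 was already raised at 1 h. Csf3, which encodes G-CSF, the growth factor for neutrophils, had 3.83 CPM before LPS, 120 CPM after 1 h and 2305 CPM after 4 h, the ratio being 603 (interval 509 to 719). It was found in 1.43% of thinned cells at 0 h, 44.65% at 1 h and 99.1% at 4 h. Lif, a cytokine of the IL-6 family, had 0.0571 CPM (2 UMIs) and 83.5 CPM, the ratio being 1462 (404 to 12079), and Csf2, which encodes GM-CSF, had 0.0571 and 38.5 CPM. A UMI of Lif was found in 46.4% of thinned cells at 4 h and 1 of Csf2 in 20.5%.

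Tnf took another course. This gene of the early TLR4 response had 143 CPM before LPS, 3482 CPM after 1 h and 1864 CPM after 4 h, the ratio being 13 (12.7 to 13.4) at the later hour. It was already in 77.7% of thinned cells before LPS and in 99.9% at 4 h. Il27, which encodes a subunit of a cytokine that acts on T cells, had 1.37, 2.45 and 22.3 CPM. Il6 had 1.88, 6.10 and 16.9 CPM, the ratio being 8.96 (6.88 to 11.8), in 2.44% and 16.8% of thinned cells. The anti-inflammatory cytokine gene Il10 had 0 UMIs at 0 h and 0.363 CPM at 4 h, and Il12b, a subunit of IL-12 and IL-23, 0.0286 and 0.181 CPM with an interval of the ratio from 0.629 to 313. Of the 18 counted cytokine genes, 16 were higher at 4 h, 15 of them over 2-fold, and 1 was over 2-fold lower, with a median log2 ratio of 3.34. By the measured-gene limit 7 of 9 were over 2-fold higher.

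All 10 counted CC chemokine genes, whose products draw monocytes and other leukocytes, were over 2-fold higher at 4 h, with a median log2 ratio of 3.15, and so were all 5 within the measured-gene limit. Ccl2, the main monocyte attractant, had 1187 CPM before LPS, 2718 CPM after 1 h and 12407 CPM after 4 h, the ratio being 10.5 (10.4 to 10.6). Ccl3, or MIP-1α, had 1292, 2565 and 10751 CPM, and Ccl7 had 126, 301 and 1658 CPM. A UMI of Ccl2 and of Ccl3 was found in 100% of thinned cells at 4 h, and 1 of Ccl7 in 24.5% at 0 h and 96.8% at 4 h. The 12 listed genes summed to 5212 CPM at 0 h and 37212 CPM at 4 h. Ccl22 and Ccl17, ligands of CCR4, had no UMI at 0 h and 5.63 and 2.90 CPM at 4 h, in 4.34% and 1.01% of thinned cells. Of the CXC chemokines, Cxcl2, a neutrophil attractant, had 235, 7011 and 11764 CPM, the ratio being 50.1 (49.1 to 51.3), in 25.9% of thinned cells at 0 h and in all of them at 4 h. Cxcl16 was over 2-fold higher as well, and Cxcl3 had 0 and 6.26 CPM. Cxcl10, an interferon-induced ligand of CXCR3, stood apart with 20.0, 53.3 and 29.8 CPM, the ratio being 1.49 (1.34 to 1.66).

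Every one of the 10 NF-κB subunit and inhibitor genes was higher at 4 h, 9 of them over 2-fold, with a median log2 ratio of 1.63. By the measured-gene limit 7 of 8 were over 2-fold higher. Nfkb1, the precursor of p50, had 44.1, 114 and 256 CPM at 0, 1 and 4 h, the ratio being 5.80 (5.48 to 6.14), and Nfkb2, the precursor of p52, had 16.2, 24.3 and 75.3 CPM. Rel, which encodes c-Rel, was higher at 1 h than at 4 h, with 33.4, 123 and 93.3 CPM. The inhibitor gene Nfkbia was higher at 1 h than at 4 h as well, with 233, 1522 and 944 CPM. So was Nfkbiz, which encodes the nuclear coactivator IκBζ, with 6.65, 411 and 128 CPM. Nfkbib, in contrast, had 35.4, 63.0 and 121 CPM. The subunit precursors thus stood highest at 4 h and Nfkbia, Nfkbiz and Rel at 1 h.

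Feedback genes of the pathway were divided in the same way. Tnfaip3, or A20, a ubiquitin-editing brake on NF-κB, had 3.94 CPM before LPS, 149 CPM after 1 h and 24.9 CPM after 4 h. Zfp36, or tristetraprolin, which speeds the decay of cytokine mRNAs, had 40.7, 448 and 70.6 CPM, the ratio being 1.74 (1.61 to 1.87) at 4 h. Traf1 had 23.3, 365 and 280 CPM and Socs3, an inhibitor of cytokine receptors, 11.0, 135 and 110 CPM (110.5). Zc3h12a, the RNase regnase-1, and Tnip1, a partner of A20, were highest at 4 h, with 9.31, 72.5 and 118 CPM and 28.6, 79.7 and 178 CPM. Zfp36l1 was the 1 member over 2-fold lower, from 7.85 to 1.5 CPM. In all, 16 of the 20 feedback genes were higher and 9 over 2-fold, and the list median was 0.92. By the measured-gene limit 5 of 11 were over 2-fold higher.

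The immediate-early genes were divided at 4 h, and the sum of the list was 958 CPM before LPS, 7988 CPM after 1 h and 2869 CPM after 4 h. Egr1 had 12.5 CPM before LPS, 562 CPM after 1 h and 10.5 CPM after 4 h, and Fos 21.7, 147 and 6.17 CPM, the ratio being 0.284 (0.235 to 0.342) between 4 h and 0 h. Myc, by contrast, had 1.03, 4.94 and 9.12 CPM, and the AP-1 gene Fosl1 11.8, 104 and 61.0 CPM. Ier3, a survival gene of the NF-κB response, was still at 1497 CPM, from 158 CPM at 0 h and 3326 CPM at 1 h. Of these 20 genes 13 were higher and 7 lower at 4 h. Past 2-fold were 7 higher and 6 lower, Klf4 lowest of all, from 70.2 to 16.3 CPM. By the measured-gene limit 5 of 11 were over 2-fold higher and 2 lower, against 5.03% and 13.4% of all genes. The lower side was thus near the share of all genes. Of the receptor side, Cd14 had 631 and 1742 CPM, Tlr2 49.1 and 164 CPM, and Ly96 14.5 and 39.2 CPM, all over 2-fold higher, while Tlr4 itself had 22.1 and 16.2 CPM, the ratio being 0.730 (0.642 to 0.829). The TRIF partner gene Ticam2 had 7.28 and 2.36 CPM.

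**Figure D2:**
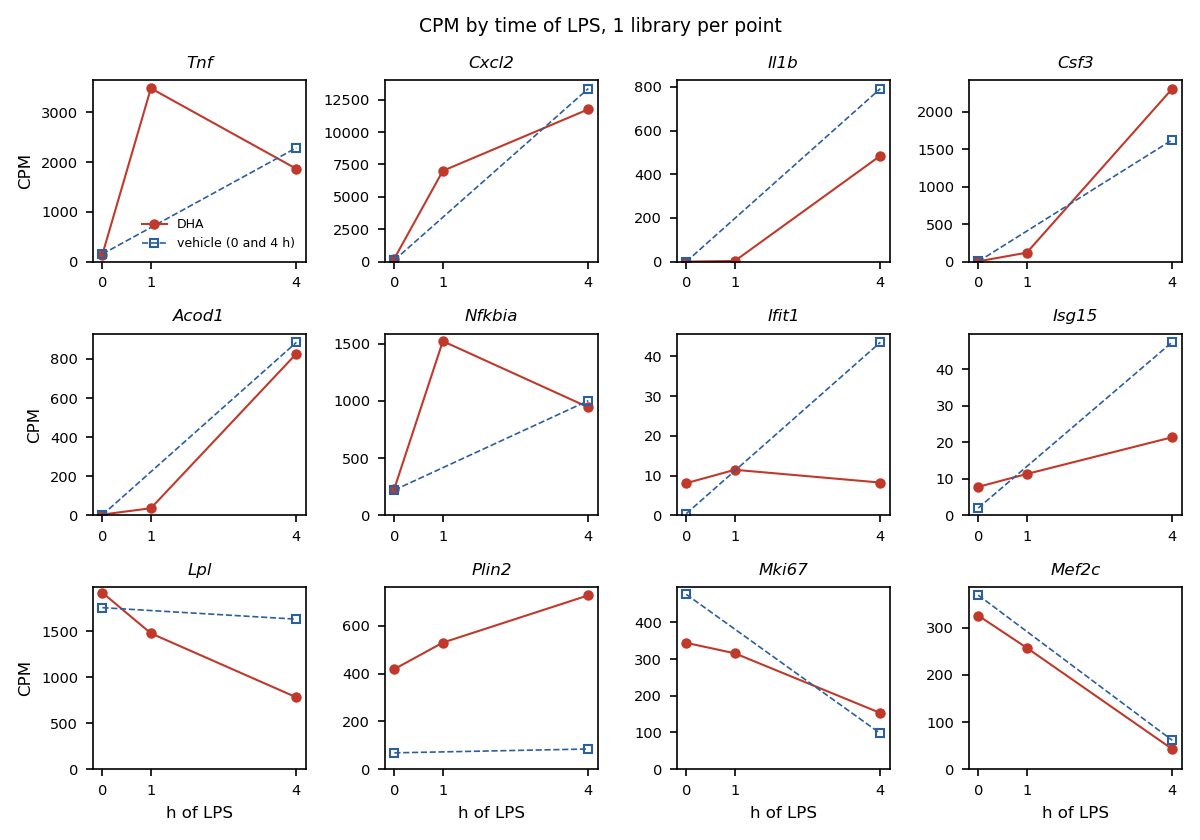
CPM of 12 genes against hours of LPS in the DHA libraries (filled circles, 0, 1 and 4 h) and in the vehicle libraries (open squares, 0 and 4 h), 1 library per point with no error bars. Tnf and Nfkbia stood highest at 1 h, Il1b, Csf3 and Acod1 at 4 h, and Ifit1 with DHA stayed between 8.11 and 11.5 CPM.

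Effector enzymes and secreted proteins of the activated macrophage had list medians of 2.45 and 2.56. Acod1, the enzyme that makes itaconate from cis-aconitate, had 4.20, 36.4 and 827 CPM at 0, 1 and 4 h, the ratio being 197 (168 to 233), and was in 2.15% of thinned cells at 0 h and 98.0% at 4 h. Ptgs2, or COX-2, the inducible enzyme of prostaglandin synthesis, had 3.91, 18.8 and 373 CPM, and Ptges, the enzyme that makes PGE2 from its product, 1.97, 3.99 and 16.5 CPM. Nos2, the inducible nitric oxide synthase, was lower in level, with 0.228 and 16.8 CPM, in 16.3% of thinned cells at 4 h. Slc7a11, which takes up cystine for glutathione synthesis, had 39.2, 108 and 298 CPM. Of the 13 enzyme and transporter genes counted, 9 were over 2-fold higher and 4 were lower, and by the measured-gene limit 6 of 9 were over 2-fold higher. Nlrp3, the sensor of the inflammasome that activates IL-1β, had 23.5, 539 and 472 CPM, the ratio being 20.1 (18.7 to 21.6). Its partners did not follow: Casp1 had 44.3 and 37.2 CPM and Gsdmd, the pore former, 55.7 and 31.1 CPM, while Casp4, which binds cytosolic LPS, had 22.9 and 52.4 CPM.

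Among secreted proteins, the acute phase gene Saa3 had 1.86, 8.17 and 183 CPM, the ratio being 98.8 (77.4 to 128). Lcn2, a siderophore-binding protein that withholds iron from bacteria, had 27.7, 39.7 and 442 CPM, in 7.02% and 75% of thinned cells. Mmp13, Edn1 and Serpinb2 had no UMI at 0 h and 26.4, 20.0 and 7.44 CPM at 4 h. Against the floor of 3 UMIs these were 8.27, 7.86 and 6.44 higher on the log2 scale. Of the 19 such genes counted 18 were higher, 14 of them over 2-fold, and by the measured-gene limit 5 of 9 were over 2-fold higher. Completing the 15 highest genes were Tnfrsf1b, the TNF receptor 2 (4.51 and 119 CPM), Marcksl1, an actin-binding MARCKS family protein (27.8 and 809 CPM), the cAMP phosphodiesterase gene Pde4b (3.17 and 52.5 CPM), Phlda1 (9.79 and 205 CPM) and the predicted gene Gm12840 (0.828 and 49.4 CPM).

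The interferon arm did not move with the cytokines. Of 32 counted genes of the type I interferon response, 16 were higher and 16 lower at 4 h, 4 and 5 of them over 2-fold, and the median log2 ratio was -0.03 (0.27 on the TMM scale, on which 19 were higher). Only 8 of them lay within the measured-gene limit, 1 over 2-fold higher and 1 over 2-fold lower. The summed level of the list was 447 CPM before LPS, 483 CPM after 1 h and 511 CPM after 4 h. Ifnb1 itself had 0.0857 CPM (3 UMIs) and 0.499 CPM (11 UMIs), the ratio being 5.83 (1.54 to 32.5). Ifit1 (mm10 chromosome 19, 34640889 to 34650009), an inhibitor of translation of foreign RNA, had 8.11, 11.5 and 8.26 CPM at 0, 1 and 4 h, the ratio being 1.02 (0.841 to 1.23). Rsad2, or viperin, an antiviral enzyme, had 3.0, 9.40 and 2.72 CPM. In summed CPM neither of these differed between 0 and 4 h beyond counting error, which treats UMIs as independent. The share of thinned cells with an Ifit1 UMI was, however, 2.58% (1.54 to 4.05) at 0 h and 5.92% (4.29 to 7.95) at 4 h. Lower at 4 h beyond that counting error were Ifit2 (9.51 and 3.31 CPM), Dhx58, a regulator of RIG-I (6.71 and 2.0 CPM), and Ifi44 (5.48 and 1.36 CPM). Shares of thinned cells with a UMI were 9.2% and 4.3% for Ifit2 and 12.5% and 3.76% for Dhx58. For Ifi44 they were 2.72% and 1.59%, so its sums rest on few cells. Higher were Isg15, a ubiquitin-like protein (7.79 and 21.4 CPM), Oasl1, which represses translation of Irf7 (22.4 and 93.6 CPM), and the RNA sensor gene Ifih1 (8.28 and 22.0 CPM).

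Of the 15 interferon factors and receptors 8 were higher and 7 lower, with a median of 0.03. Past 2-fold were 2 lower and 1, Ifnb1, higher. By the measured-gene limit 2 of 11 were over 2-fold lower and 0 higher, against 13.4% and 5.03% of measured genes. Irf7, the amplifier of interferon production, had 17.5, 13.8 and 11.3 CPM, the ratio being 0.645 (0.555 to 0.749). Stat2 had 12.6, 6.57 and 7.17 CPM, while Irf2, an antagonist of IRF1, had 70.5 and 28.5 CPM and Irf3 18.8 and 12.9 CPM. Of the Ifi200 family, DNA-binding proteins induced by interferon, none of 9 members was past 2-fold, from Ifi213 with a log2 ratio of -0.34 to Ifi211 with 1.00. These genes are close relatives, so reads may have been split between them.

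At 0 h few cells held most UMIs of some interferon genes, though not of the list. The 7 cells with most UMIs of a gene, 1% of DHA.LPS.0, held 83.8% of its Ifit1 UMIs, 97.1% of Rsad2, 78.4% of Ccl5 and 74.1% of Cxcl10. For Ifit2, Isg15, Oasl1 and Irf7 this share was 48.9%, 40.7%, 35% and 18.3%, and over the whole list, in thinned cells, 13.8%. At 4 h, the 7 cells with most held 55.0% of Ifit1, 98.3% of Rsad2, 28.7% of Ccl5 and 50.7% of Cxcl10. In cells thinned to 20000 UMIs, an Ifit1 UMI was found in 2.58% (1.54 to 4.05) at 0 h and 5.92% (4.29 to 7.95) at 4 h. A Ccl5 UMI was found in 4.30% (2.92 to 6.08) and 38.0% (34.4 to 41.7). The share of cells with Ccl5, a chemokine gene driven by both NF-κB and IRF factors, thus stood in a larger ratio than its CPM, which was 52.2 at 0 h and 274 at 4 h. Over the whole list, the median thinned cell held 7 UMIs at 0 h, 7 at 1 h and 6 at 4 h, and the 95th percentile was 19, 23.3 and 32.5 UMIs.

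Leaving out the 1% of cells of each library highest for the interferon list, a choice made after the data were seen, changed single genes more than the list. The list median became 0.25, with 19 genes higher and 12 lower. Without these cells Ifit1 had 2.51 and 4.12 CPM at the earlier and later hour, Isg15 4.75 and 19.3 CPM, Ccl5 16.2 and 255 CPM, and Cxcl10 9.82 and 27.3 CPM. Their log2 ratios went from 0.03 to 0.72, from 1.45 to 2.03, from 2.39 to 3.98 and from 0.58 to 1.47. Irf7 kept a log2 ratio of -0.60. The 7 cells left out at 0 h also had 4501 CPM of Cxcl2, against 198 CPM in the others. Il6, Csf3, Lcn2 and Saa3 were as uneven at 0 h, with 62.1%, 91.8%, 64.5% and 52.3% of UMIs in the 7 cells with most, so their ratios rest on few cells of that library.

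**Figure D3:**
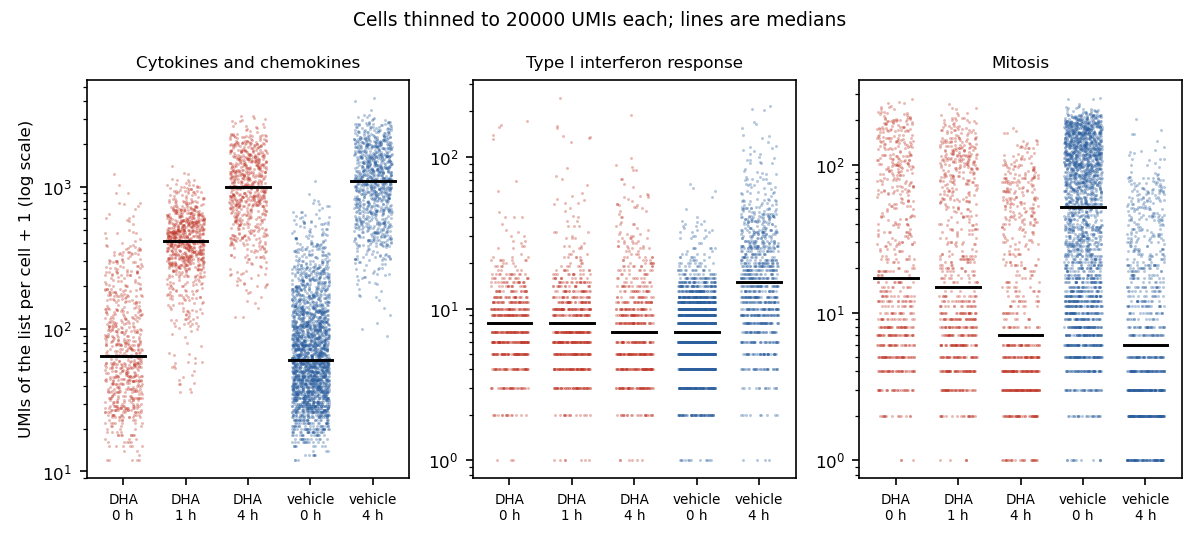
Each point is 1 cell thinned to 20000 UMIs, with its summed UMIs (plus 1, log scale) of the cytokine and chemokine genes, the interferon list or the mitosis list, for DHA at 0, 1 and 4 h and vehicle at 0 and 4 h. Black lines are medians: 64, 412 and 1004 cytokine and chemokine UMIs with DHA, against 7, 7 and 6 interferon and 16, 14 and 6 mitosis UMIs.

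Cell cycle genes were lower after 4 h. All 26 counted mitosis genes were lower at 4 h, 14 over 2-fold (11 of 21 by the measured-gene limit), with a median log2 ratio of -1.04 (-0.74 on the TMM scale, on which all 26 were lower as well and 6 over 2-fold). Mki67, the marker of cycling cells, had 344, 316 and 153 CPM at 0, 1 and 4 h, the ratio being 0.445 (0.428 to 0.462), and was in 61.6% of thinned cells at 0 h and 44.1% at 4 h. Top2a, which untangles DNA before division, had 329, 293 and 164 CPM. The mitotic kinase genes Aurkb and Plk1 had 55.7 and 15.8 CPM and 37.5 and 15.1 CPM, and the spindle and kinetochore genes Nusap1, Hmmr, Kif11 and Cenpf had log2 ratios between -1.65 and -1.45. Of each library, some cells kept a high mitosis score: the median thinned cell held 16 UMIs of the list at 0 h and 6 at 4 h, while the 95th percentile was 195 and 100.

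All 26 S phase genes were lower as well, 10 over 2-fold, with a median log2 ratio of -0.73. By the measured-gene limit 8 of 22 were over 2-fold lower, against 13.4% of measured genes. On the TMM scale the list median was -0.43, with 5 genes above 0 and 4 over 2-fold lower. The largest decreases were in Ung, the uracil-DNA glycosylase (14.1 and 1.95 CPM), and Ccne1, the cyclin of S phase entry (31.5 and 6.40 CPM), followed by the helicase subunit Mcm6 (61.1 and 17.7 CPM). All 11 histone genes were lower, with a median of -1.08; they have near-identical copies between which reads could be split. Of the G1 regulators, Ccnd3 had 74.3 and 13.2 CPM, Ccnd1 735 and 353 CPM, and the inhibitor genes Cdkn1b, Cdkn2c and Cdkn2d were over 2-fold lower too, while Cdkn1a had 507, 873 and 372 CPM. Odc1, the first enzyme of polyamine synthesis and a MYC target, had 1442, 1734 and 6151 CPM.

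The 15 genes with the lowest ratios were of several kinds. Klhl6 (mm10 chromosome 16, 19946492 to 19983049), a ubiquitin ligase adaptor, was lowest, with 39.1, 28.2 and 2.40 CPM at 0, 1 and 4 h, the ratio being 0.0614 (0.0458 to 0.0808). Gpr183, a receptor for an oxidised cholesterol that guides leukocyte migration, had 73.8, 37.4 and 5.58 CPM. Mef2c, a transcription factor of the myeloid lineage, had 326, 258 and 42.4 CPM, and was in 97.3% of thinned cells at 0 h and 44.4% at 4 h. Hdac9, a class IIa deacetylase that binds MEF2 factors, had 20.8, 16 and 2.18 CPM. Vsir, the immune checkpoint VISTA, had 26.2 and 2.95 CPM, and the thymidine kinase gene Tk1 44.1 and 6.12 CPM. Bmyc, Gnb5, Kifc3, Susd3, Frmd4b, Rasa3, Psrc1 and Aph1c were also among them, with log2 ratios from -3.38 to -2.80. In each of the 15 the 1 h value lay between those of 0 and 4 h.

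Of the genes of fatty acid and cholesterol synthesis, whose products supply membranes, some were over 2-fold lower. Scd1 and Scd2, the desaturases that make monounsaturated fatty acids, had 6.59, 4.43 and 0.544 CPM and 167, 101 and 29.3 CPM, ratios of 0.0825 (0.0420 to 0.147) and 0.175 (0.161 to 0.190). The elongase genes Elovl5 and Elovl6 were over 2-fold lower too, and 8 of the 11 genes of this list were lower, with a median log2 ratio of -0.82 (-0.52 on the TMM scale). Of 20 cholesterol synthesis genes 15 were lower, where 33.6% of all measured genes were above 0, and 6 were over 2-fold lower. Their median was -0.58. By the measured-gene limit 5 of 19 were over 2-fold lower, against 13.4% of all genes. On the TMM scale the median was -0.28, with 2 of the 20 over 2-fold lower, where 6.66% of measured genes were. Dhcr7, the last enzyme of the pathway, had 19.3, 14.4 and 4.04 CPM, and Mvd, Pmvk and Mvk, which turn mevalonate into isoprenoid units, had log2 ratios of -1.19, -1.16 and -1.04. Hmgcs1, the entry enzyme, peaked at 1 h, with 68.0, 153 and 65.9 CPM. Of the sterol regulators, Insig1 had 25.5, 88.7 and 39.1 CPM. Abcg1, a cholesterol exporter, had 12.1 and 2.90 CPM, whereas its relative Abca1 had 1 UMI at 0 h and 9 at 4 h.

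Of the 22 genes of lipid droplets, uptake and oxidation, 15 were lower and 7 higher. Their median log2 ratio was -0.38, near the -0.35 of all genes with 10 or more UMIs. Plin2, the coat protein of lipid droplets, had 419, 530 and 728 CPM, the ratio being 1.74 (1.70 to 1.78), and Hilpda, an inhibitor of the droplet lipase ATGL, 30.3, 203 and 236 CPM. Lpl, which frees fatty acids from lipoproteins, had 1921, 1479 and 781 CPM, the ratio being 0.407 (0.400 to 0.414). Acadm and Cpt2, of mitochondrial fatty acid oxidation, had 57.1 and 19.1 CPM and 11.0 and 3.40 CPM, and Cpt1a 15.9 and 6.85 CPM. Angptl4, an inhibitor of Lpl, had 3.25 and 0.590 CPM, and the fatty acid receptor Cd36 51.6 and 58.1 CPM. Fabp4, a fatty acid carrier, had 0.257 and 33.7 CPM, but 7 cells held 55.4% of its UMIs at 4 h.

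Some antioxidant and metal-binding genes were higher at 4 h. Sqstm1, or p62, an autophagy receptor and NRF2 target, had 286, 887 and 1345 CPM, the ratio being 4.70 (4.59 to 4.81). Hmox1, heme oxygenase 1, had 172, 275 and 304 CPM, and Txnrd1, Srxn1 and Prdx1 were over 2-fold higher, yet the median of 21 NRF2 targets was -0.06, with 9 higher and 12 lower. Both metallothionein genes, whose products bind zinc and copper, were higher: Mt1 had 537, 1317 and 2357 CPM and Mt2 268, 515 and 1231 CPM. Of the iron genes, the ferritin chain Fth1 had 20554, 21366 and 26701 CPM, the transferrin receptor Tfrc 44.0 and 155 CPM and the importer Slc11a2 21.4 and 81.5 CPM, while the iron exporter ferroportin, Slc40a1, had 38.9, 27.8 and 13.7 CPM. The iron import genes Tfrc and Slc11a2 were thus higher and the export gene lower. The zinc importer Slc39a14 was higher, from 23.0 to 78.7 CPM, while another, Slc39a10, was lower. Atf4 had 236 and 533 CPM, with Herpud1 and Chac1 over 2-fold higher and the ER chaperones Sdf2l1 and Pdia4 over 2-fold lower, and the 20 stress genes had a median of 0.15.

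Energy and translation genes moved little. The glucose transporter Slc2a1 and the hexokinase Hk2 were over 2-fold higher (89.9 and 206 CPM, and 32.6 and 80.8 CPM), while the median of 17 glycolysis genes was -0.17. Of 20 nuclear respiratory chain genes 19 were lower, none over 2-fold, with a median of -0.28, and all 20 ribosomal protein genes were lower, with a median of -0.27. On the TMM scale these 3 medians were 0.13, 0.02 and 0.04, so their direction depended on the scaling. Of the ribosome biogenesis genes 19 of 20 were higher, led by Rrs1 (76.3 and 182 CPM) and Nop58 (149 and 325 CPM). Their median was 0.42, and 0.72 on the TMM scale. The TMM shift moves a list and its reference alike, so a list keeps its place against the reference on both scales.

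**Figure D4:**
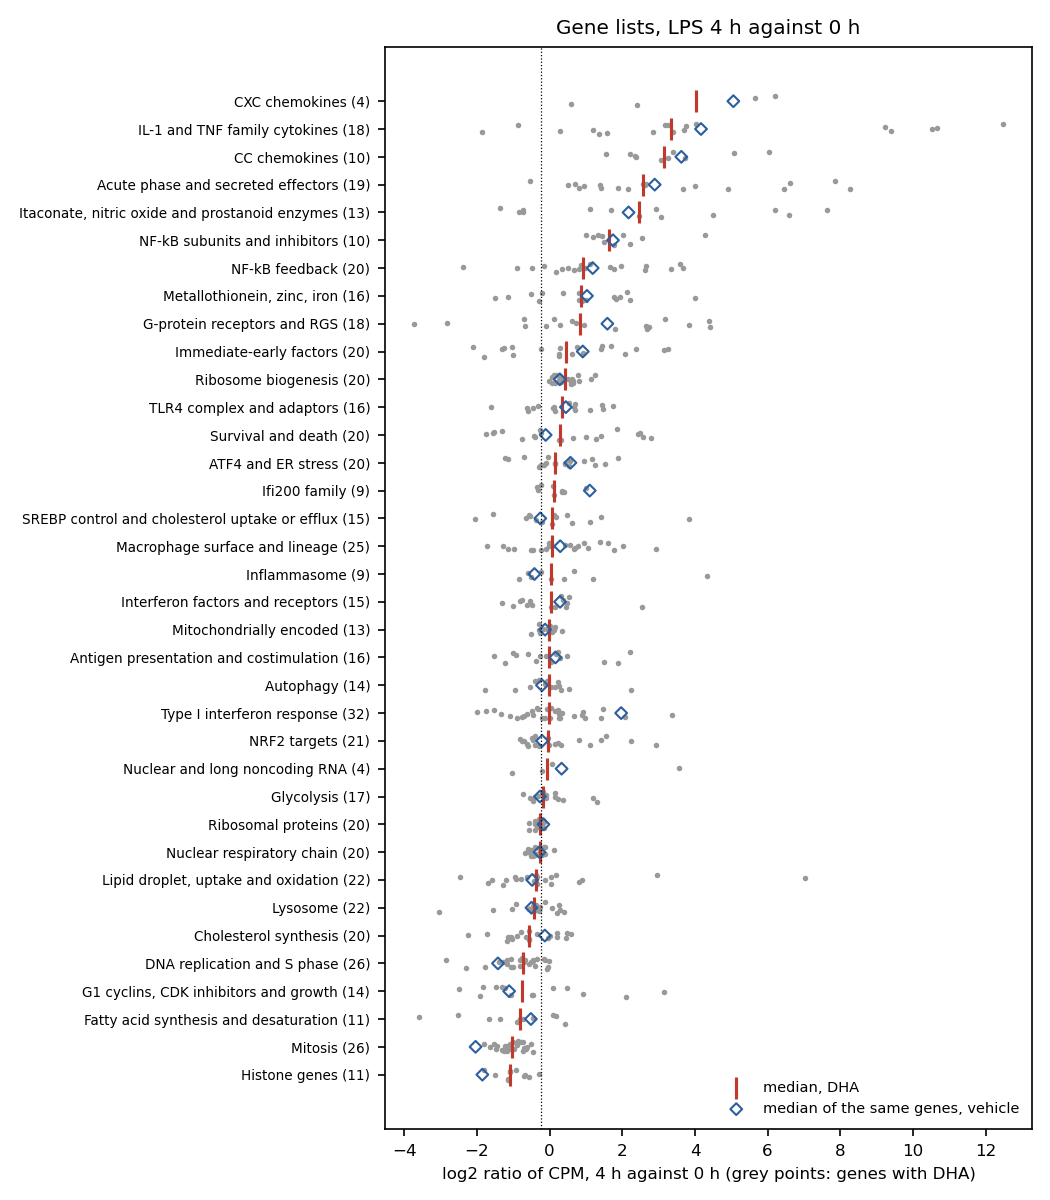
Log2 ratio of CPM at 4 h over 0 h for the counted members of each gene list (number in brackets): grey points are genes with DHA, red bars their median, open diamonds the median of the same genes with vehicle, and the dotted line the median of -0.24 over all genes. The gap between the medians was widest for the interferon list (-0.03 and 1.97), followed by the CXC chemokine (4.02 and 5.06) and mitosis lists (-1.04 and -2.04).

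The response with DHA was set beside that with vehicle, a pair of libraries that shares no sample with it. Over 5961 genes measured in both pairs, the log2 ratios had a Pearson r of 0.951 and a Spearman rho of 0.929, across genes that are not independent replicates and share their depth in each library, and 91.4% of genes differed by less than 0.5. Of the genes measured in both pairs, 262 were over 2-fold higher in both, 82.6% of 317 with DHA and 84.8% of 309 with vehicle. Over 2-fold lower in both were 642, 92.0% of 698 with DHA and 62.9% of 1021 with vehicle. In the vehicle pair as a whole 381 of 6297 genes were higher (6.05%) and 1066 lower (16.9%), or 741 (11.8%) and 499 (7.92%) on the TMM scale. The vehicle libraries had medians of 36897 UMIs per cell at 0 h and 56239 at 4 h. There the 50% limit was thus reached more easily at 4 h, the reverse of the DHA pair, so the counts of the pairs are not on equal terms. By the measured-gene limit in each pair, no gene past 2-fold in one direction with DHA was past it in the other with vehicle. Outside that limit there were such genes. Among them were Ifi44, with log2 ratios of -2.01 with DHA and 1.15 with vehicle, and Ifit2, with -1.52 and 1.83. With 1 library per condition, no difference between the responses could be tested, and their TMM shifts differ by -0.13.

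Of the lists, the interferon genes had the largest median difference between the responses. With vehicle the 32 genes had a median log2 ratio of 1.97, and in all 32 the ratio was smaller with DHA, on either scale, with a median difference of -2.06. Levels differed at both ends: the list summed to 361 CPM at 0 h and 1030 CPM at 4 h with vehicle, against 447 and 511 CPM with DHA. Ifit1 had 0.435 and 43.6 CPM with vehicle and 8.11 and 8.26 CPM with DHA, and an Ifit1 UMI was found in 0.443% and 16.1% of thinned cells with vehicle. Irf7 had 8.47 and 32.6 CPM with vehicle, Isg15 2.0 and 47.4 CPM, and Ifnb1 0 UMIs and 3.36 CPM. The median thinned cell went from 6 to 14 UMIs of the list with vehicle. Without the 1% of cells highest for the list in each library, the ratio was smaller with DHA in all 31 genes with a value. The median difference was then -1.69. Cmpk2 had no UMI at 0 h with DHA in the cells that were left, and so no ratio. All 9 Ifi200 members also had smaller ratios with DHA, with a median difference of -0.96.

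For some genes the gap in the ratio and the gap in the level at 4 h had opposite directions. Ccl5 had 1.97 and 190 CPM with vehicle, a log2 ratio of 6.59 against 2.39 with DHA, yet its level at 4 h was higher with DHA, at 274 CPM. Il6, in contrast, had 0.192 and 36.6 CPM with vehicle and was lower with DHA at 4 h, at 16.9 CPM. Lcn2, with 4.24 and 285 CPM, and Mt2, with 69.6 and 992 CPM, were higher with DHA at both hours, and their log2 ratios differed by -2.07 and -1.63. Of the other genes with smaller ratios, Slfn5, an interferon-induced gene, had 10.6 and 62.0 CPM with vehicle against 16.8 and 23.2 CPM with DHA, and Mir155hg, the host transcript of miR-155, 0.759 and 30.9 CPM against 1.17 and 13.8 CPM.

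The cytokine and chemokine lists had smaller medians with DHA. The cytokine list had a median of 3.34 with DHA and 4.17 with vehicle, the CC chemokines 3.15 and 3.62, and the CXC chemokines 4.02 and 5.06, with the ratio smaller with DHA in 15 of 18, 9 of 10 and 3 of 4 genes. Without the 1% of cells highest for the interferon list, the CC chemokine medians were 3.419 with DHA and 3.566 with vehicle. The ratio was then smaller with DHA in 8 of those 10 genes, and the other 2 lists kept their counts. The median difference went from -0.374 to -0.353 for CC, -0.458 to -0.414 for cytokine and -1.105 to -0.986 for CXC genes. The gap between the CC medians thus depended on these cells more than the median difference did. At 4 h, Il1b had 485 CPM with DHA and 792 CPM with vehicle and Tnf 1864 and 2287 CPM, while Csf3 had 2305 and 1622 CPM. Ccl2 had 12407 and 11723 CPM, but the direction of this gap reverses with TMM factors (0.891 for DHA.LPS.4 and 0.819 for Veh.LPS.4). The median thinned cell held 1004 and 1106 UMIs of the cytokine and chemokine genes. The NF-κB genes had medians of 1.63 and 1.74.

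**Figure D5:**
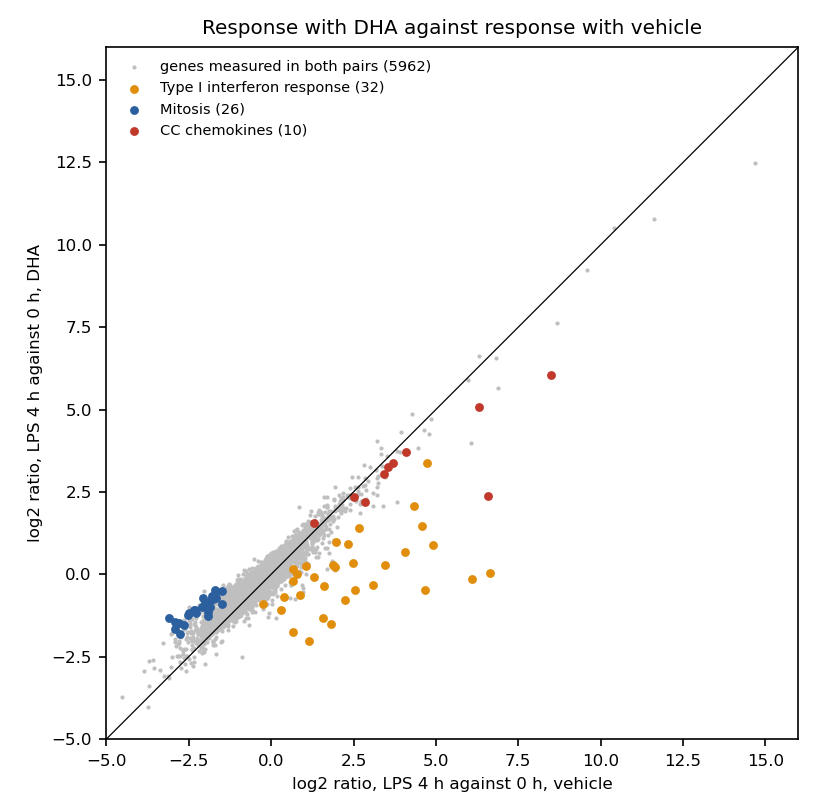
Log2 ratio of CPM at 4 h over 0 h with DHA against that with vehicle, for genes measured in both pairs (grey) and for the members of 3 lists, with the line of equality. All 32 interferon genes lie below the line and all 26 mitosis genes above it.

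The cell cycle genes were less reduced with DHA. The mitosis list had a median of -1.04 with DHA and -2.04 with vehicle, and the decrease was smaller with DHA in all 26 genes on either scale. Here too both ends differed: Mki67 had 477 and 97.3 CPM with vehicle, so DHA.LPS.0 was below its vehicle library and DHA.LPS.4 above. Plk1 had 54.2 and 6.38 CPM with vehicle against 37.5 and 15.1 CPM with DHA, and Aspm, Sgo2a, Sgo1, Prc1 and Cenpf were also among the 10 genes with the most positive difference. The S phase and histone lists had medians of -1.42 and -1.85 with vehicle. Others of the 10 genes were Slc39a10, a zinc importer (114 and 27.6 CPM with vehicle, 37.0 and 26.0 CPM with DHA), Samd1 (22.7 and 4.06 CPM, and 9.85 and 6.80 CPM) and Cpt1a (7.77 and 1.11 CPM, and 15.9 and 6.85 CPM).

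Among lipid genes, Lpl had 1758 and 1633 CPM with vehicle against 1921 and 781 CPM with DHA. Scd2 had 369 and 199 CPM with vehicle and Scd1 42.3 and 17.4 CPM, so both were lower with DHA at each hour and had the more negative ratio. The cholesterol list had a median of -0.13 with vehicle against -0.58, and the ratio was smaller with DHA in 18 of 20 genes. Plin2 had 68.0 and 84.2 CPM with vehicle. Slc40a1 had 12.1 and 12.3 CPM with vehicle, about the level that DHA.LPS.4 reached from 38.9 CPM.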

How the data were processed

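RNA of single macrophages from 7 libraries was captured with 10x Genomics 3′ v3 chemistry. The authors deposited filtered matrices of raw UMI counts per gene and barcode, made with Cell Ranger 3.1.0 and mm10 according to the submitters' processing notes; values are whole-number counts. Cells were kept with over 20000 UMIs, at least 2000 genes and under 20% mt- UMIs, and doublets were not removed. Counts were summed per library, scaled to CPM and, as an alternative, with TMM factors of edgeR 4.0.16 in R 4.3.3. SCTransform used Seurat 5.3.0 and sctransform 0.4.2. Intervals were computed in Python 3.11.15 with scipy 1.17.1. Scripts were tested on simulated data. With 1 library per condition no test was run. Named genes were the 15 highest and 15 lowest, the members of each list with the largest ratios, the 10 largest differences from vehicle each way and a set list. The members and lists were chosen with earlier results of these data known. Gene positions are from RefSeq, GRCm38.p6. Promoter sequences were not analysed here, and a few of the named genes are not reported here. Alternatives were other scalings, barcode filters, thinning, share limits and fold thresholds. One was added after the data were seen, leaving out the 1% of cells highest for the interferon list.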

Additional observations from a re-analysis of the deposited data

Results flagged for a closer look

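A set of named genes had ratios in opposite directions with DHA and with vehicle, in single pairs of libraries, and the difference was not tested. Of the interferon genes, Ifi44 had a log2 ratio of -2.01 with DHA and 1.15 with vehicle, Dhx58 -1.75 and 0.67, and Ifit2 -1.52 and 1.83. The signalling factors behaved alike, Stat2 having -0.81 and 0.47 and Irf7 -0.63 and 1.94. Without the 1% of cells highest for the interferon list, Ifi44, Dhx58 and Ifit2 had -1.23, -1.62 and -0.99 with DHA, and Irf7 -0.60. Of the Ifi200 family, Ifi213 had -0.34 and 0.62 and Ifi203 -0.32 and 0.94. On the TMM scale the DHA values of these last genes were -0.04 and -0.02. Rgs2, which dampens signals of G-protein-coupled receptors, had -0.70 with DHA and 1.23 with vehicle.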

How the results depend on the processing

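No paired analysis was possible because each condition had 1 library. TMM factors put 498 genes past 2-fold upward and 421 downward (median 0.056), and with median-of-ratios factors 541 and 393 (median 0.10), so the sign of the median depended on the scaling. Without a barcode filter 124 and 114 genes were past 2-fold, of 1672 measured. Thinning left 270 higher and 343 lower of 3921 measured, and SCTransform-corrected counts gave 157 and 69. With no share limit the counts were 760 and 2811 of 11987 genes, with a limit of 25% 401 and 1453 of 8477, and past 1.5-fold 625 and 1851. Unlike these, leaving out mt- genes, a 10% mt- limit, a 10000 UMI limit, leaving out the deepest 5% of cells or the interferon-high cells gave 299 to 318 higher and 816 to 890 lower. Of 184 named genes past 2-fold, those with a value kept their direction under every alternative, and 160 stayed past 2-fold with TMM factors and 79 with SCTransform. Higher genes were 27.4% of calls with the total, 54.2% with TMM, 57.9% with median-of-ratios, 52.1% unfiltered, 44.0% thinned and 69.5% with SCTransform. Depth limits genes with few UMIs at 0 h, whose ratios have wide intervals.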

Other observations

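Of 20 genes of cell survival and death, 8 were over 2-fold higher at 4 h with DHA and 4 over 2-fold lower. By the measured-gene limit 8 of 19 were higher and 3 lower, against 5.03% and 13.4% of all genes. The lower side was thus near the share of all genes. The BCL2 relatives Bcl2a1a, Bcl2a1b and Bcl2a1d, survival proteins induced by NF-κB, had 53.4 and 366 CPM, 144 and 844 CPM, and 125 and 678 CPM at 0 and 4 h, and are near-identical copies between which reads may have been split. The death-promoting BH3 gene Bcl2l11, or Bim, was higher as well, with 19.3 and 108 CPM, while Pmaip1, or Noxa, had 19.6 and 5.81 CPM. Of the 22 lysosome genes 17 were lower, where 33.6% of all genes were above 0, with a median log2 ratio of -0.43 (-0.13 on the TMM scale), and 1 of the 19 in at least 50% of cells was over 2-fold lower, against 13.4% of all genes. Tfeb, the transcription factor of lysosome biogenesis, was the lowest, with 8.99 and 1.09 CPM.

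Of 16 counted antigen presentation and costimulation genes 8 were higher and 8 lower, with a median log2 ratio of -0.02. Past 2-fold were 3 in each direction. By the measured-gene limit 1 of 12 was over 2-fold higher and 3 lower, against 5.03% and 13.4% of all genes. Among those past 2-fold, the peptide transporter genes Tap1 and Tap2 had 26.3 and 9.07 CPM and 20.6 and 8.80 CPM. The costimulatory genes Cd40, Cd80 and Icosl had 6.57 and 24.0 CPM, 11.8 and 33.3 CPM, and 2.08 and 9.66 CPM. Among receptors, Gpr84, which binds medium-chain fatty acids, had 21.6, 150 and 308 CPM at 0, 1 and 4 h, and Clec4e, or Mincle, a receptor for fungal and mycobacterial glycolipids, had 231, 660 and 1751 CPM. The myeloid transcription factor gene Cebpa had 11.7 and 3.54 CPM. With vehicle, Clec4e had 166 and 1211 CPM.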
